A study of Mus musculus with 6 samples.

Results

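Interferon-stimulated genes are the transcripts that cells switch on when interferon reaches them. Here 41 mouse genes of this kind were followed in the livers of 3 mutant and 3 control mice. A probe set, the group of array probes that reads 1 transcript, was assigned to a gene where the platform annotation gave it exactly 1 symbol. By this rule 38 of the 41 genes were measured, by 60 of the 45101 probe sets on the array. Ifi44 had none, and Isg15 and Tgtp1 had only probe sets shared with a related gene. The genes were placed in 5 classes by their known roles: 23 antiviral effectors typical of type I interferon, 4 transcription factors, 8 GTPases typical of interferon gamma, 4 genes of antigen processing and 2 chemokines. The mutant mice carried 2 loxP-flanked copies of Srf with the AlfpCre transgene (Srf loxP/loxP AlfpCre), and the controls carried 1 loxP-flanked and 1 normal copy with the same transgene (Srf loxP/+ AlfpCre). All were males aged 3 weeks, and each array held the total RNA of 1 liver. Srf encodes serum response factor, a transcription factor of actin cytoskeleton and immediate early genes. AlfpCre is driven by regulatory elements of the albumin and alpha-fetoprotein genes, so it acts in hepatocytes and bile duct cells and leaves Srf intact in the other cells of the liver. The submitters describe the mutant tissue as lacking Srf.

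Type I interferons, which most cells can make, act through the receptor chains IFNAR1 and IFNAR2. They lead to a complex of STAT proteins and IRF9 that binds the interferon-stimulated response element, ISRE, upstream of antiviral genes. Interferon gamma, made mainly by T and NK cells, acts through IFNGR1 and IFNGR2 and leads to STAT dimers that bind the gamma-activated site, GAS, upstream of immunity-related GTPases, guanylate-binding proteins and genes of antigen processing. Many genes answer to both, so the classes are a convenience and not a strict division. In liver, hepatocytes, Kupffer cells and endothelial cells all carry interferon receptors. In RNA from whole liver, fewer cells of a type and less RNA per cell cannot be told apart.

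Values are log2 signals after each array was scaled to the same trimmed mean. Across probe sets, arrays correlated at 0.827 to 0.907 among mutants, 0.937 to 0.941 among controls and 0.781 to 0.931 between the groups, so mutants stood further apart from each other than controls did. The ratio of 3' to 5' signal of Pcx, a measure of RNA integrity, was 6.39 to 17.3 in mutants and 4.44 to 7.03 in controls, highest in mutant 1. The brighter Srf probe set (1418256_at) gave 4.17, 5.24 and 2.54 in mutants 1 to 3, against 5.31, 5.14 and 5.11 in controls 1 to 3. The difference did not pass the test (log2 fold change -1.2, SE 0.62, adjusted p = 0.398). The other (1418255_s_at) gave 3.29, 0 and 1.99 in mutants, against 3.00, 3.69 and 3.37 in controls (fitted -1.59, SE 0.86, adjusted p = 0.411). Its mutant mean lay below the background estimate given below, so its fold is a bound: at least 1.24-fold lower. Mutant 2 lay within the control range of the first and at the floor of the second, where mutant 1 lay within the control range. No source used here says where these probes lie relative to the deleted part of Srf, so they do not check the labels. Hepatocyte markers were bright on all arrays, and 7 of the 8 measured had every mutant above every control.

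Most interferon-stimulated genes gave lower signals in mutant than in control liver, but no single one passed the test across the array. Each gene was read by its brightest probe set among those that passed a filter on dim signals, which removed the lower 40% of probe sets and left 36 of the 38 genes. Of these 36, 33 had a negative log2 fold change, against 45.9% of all 13144 genes kept. None passed an adjusted p of 0.05 (limma), where 0.0837% of all genes passed as lower and 0.0304% as higher. Of all probe sets kept, 0.0592% passed as lower and 0.0148% as higher. At an unadjusted p under 0.05, 20 were lower and 0 higher, against 7.01% lower and 7.36% higher among all genes. The median log2 fold change was -1.01, against 0.06 for all genes kept. In 17 genes every mutant array lay below every control array, against 10.8% of all genes, and in 0 did every mutant lie above, against 14.1%. The smallest adjusted p among them was 0.0954, for Zbp1.

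These counts rest partly on how the genes were kept and on single arrays. Cxcl9, Zbp1 and Ifit2 had mutant means under the filter threshold of 2.10 and so were kept because of their control signal. Without the filter the median over all 38 measured genes was -1.0. The count at an unadjusted p under 0.05 was 13 in place of 20 without mutant 3 (where 2 genes were higher), without control 1 or without control 2, where 6.71%, 3.42% and 3.72% of all genes were lower by the same criterion. Without mutant 2, 7 of the 36 genes passed the adjusted threshold, all lower: Bst2, Cxcl9, Igtp, Irf7, Psmb9, Rtp4 and Zbp1. In that fit 1.82% of all genes passed as lower, against 0.0837% with all arrays.

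**Figure D1:**
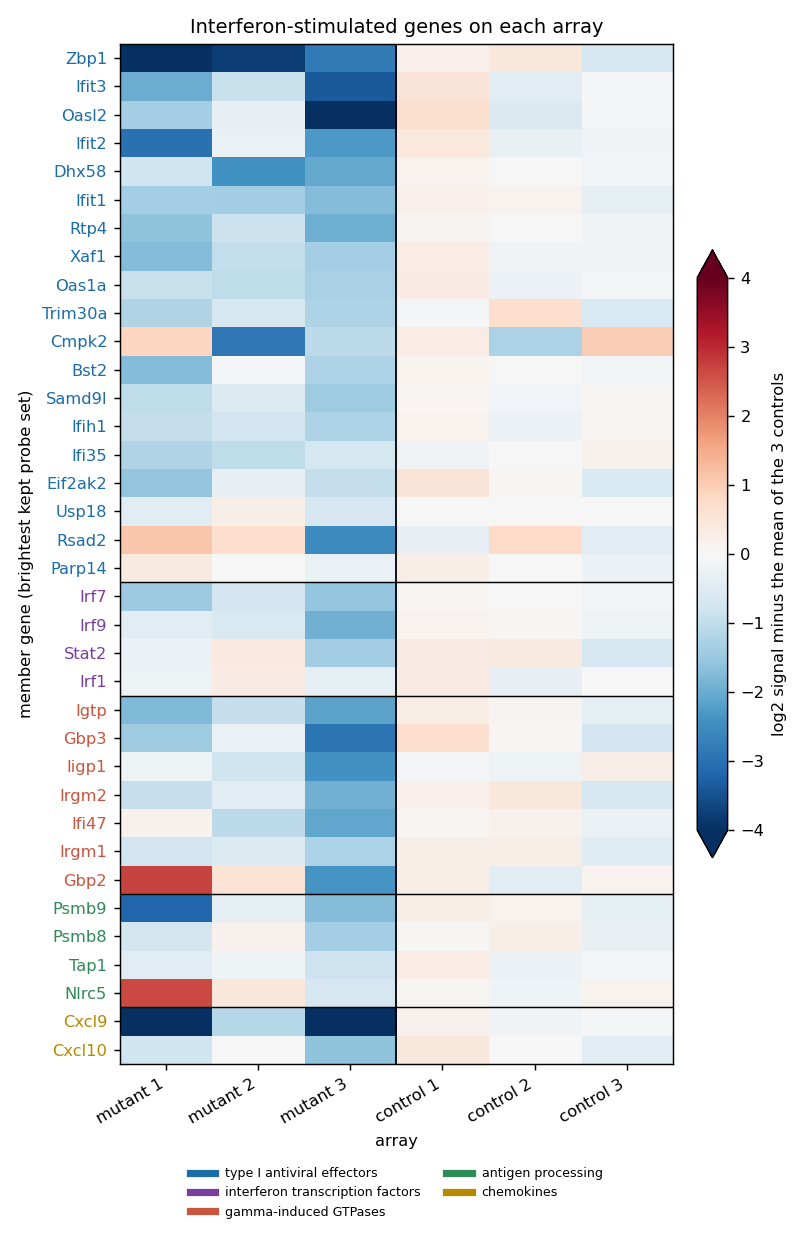
Log2 signal minus the mean of the 3 controls for the 36 genes kept (rows, coloured by class) on the 3 mutant and 3 control arrays (columns); blue is below and red above the control mean, and values beyond 4 share the end colours. Most cells of the mutant columns are blue, mutant 3 is the lowest array in 26 of the 36 genes, and Gbp2 and Nlrc5 are red in mutant 1.

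Among the antiviral effectors, 18 of the 19 genes kept had a negative log2 fold change, with a median of -1.02. None passed the adjusted threshold. At an unadjusted p under 0.05, 13 were lower, against 7.01% of all genes. In 11, every mutant lay below every control, against 10.8% of all genes. Mx1 and Mx2, dynamin-like GTPases that block viral replication, were below the filter and below the background estimate in both groups. Background was taken as the 95th percentile of 83 probe sets that read odorant, vomeronasal or taste receptors, which the liver is not known to use, 3.04 in mutants and 2.87 in controls. A fold is given as a lower bound where the mean of either group did not exceed it. Mx2 stood at 4.86 on mutant 1 and at no more than 1.24 on the other arrays.

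The Ifit genes encode tetratricopeptide proteins that bind foreign RNA and hold back its translation. They lie in 1 gene cluster, in which Ifit2 and Ifit3 are direct neighbours and 3 protein-coding genes separate Ifit3 from Ifit1. Ifit1 (1450783_at) gave log2 signals of 3.58, 3.56 and 3.20 in mutants 1 to 3, against 5.15, 5.10 and 4.58 in controls 1 to 3. Ifit3 (1449025_at) gave 3.38, 4.47 and 2.01 in mutants, against 5.87, 4.92 and 5.29 in controls. Both had separate groups, with Ifit1 even among mutants and Ifit3 spread over more than 2 log2 units. The log2 fold change was -1.49 for Ifit1 (SE 0.33, adjusted p = 0.193) and -2.07 for Ifit3 (SE 0.61, adjusted p = 0.294). Ifit2 (1418293_at) gave 0.77, 3.47 and 1.46 in mutants, against 4.16, 3.46 and 3.60 in controls. Mutant 2 reached the lowest control there, while mutants 1 and 3 lay below background (at least 1.62-fold lower by group mean, adjusted p = 0.353).

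Upstream of Ifit1 and Ifit3 lie matches to the core of the ISRE, which was searched on both strands as GAAA, any 2 bases and GAAA again, in the 250 bases before the start of transcription. The promoters of Ifit1, Ifit3 and the oligoadenylate synthetase Oas1a are shown as antiviral effectors with 2 matches each and separate groups. Bst2 and Gbp3 also held 2 matches, but their groups overlapped. Irgm1, of the GTPase class, held 2 matches and had separate groups. The antiviral effectors Ifih1, Ifi35, Samd9l and Xaf1 held no match, and their groups were separate too. A link between matches and signals was not tested. The sequences are from RefSeq (GRCm38.p6), run in the direction of transcription, and have the matches in capitals. In Oas1a the matches overlap.
Ifit1 promoter, chr19:34640639-34640888, plus strand: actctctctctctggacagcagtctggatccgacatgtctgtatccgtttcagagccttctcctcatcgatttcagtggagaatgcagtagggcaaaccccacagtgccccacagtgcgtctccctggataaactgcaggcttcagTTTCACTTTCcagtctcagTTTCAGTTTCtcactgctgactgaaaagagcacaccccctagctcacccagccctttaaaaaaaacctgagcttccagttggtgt
Ifit3 promoter, chr19:34583279-34583528, plus strand: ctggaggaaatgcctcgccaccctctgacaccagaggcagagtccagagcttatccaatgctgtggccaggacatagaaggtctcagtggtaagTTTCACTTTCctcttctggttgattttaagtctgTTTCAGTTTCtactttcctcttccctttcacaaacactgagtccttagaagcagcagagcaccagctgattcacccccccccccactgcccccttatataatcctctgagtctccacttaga
Oas1a promoter, chr5:120907526-120907775, minus strand: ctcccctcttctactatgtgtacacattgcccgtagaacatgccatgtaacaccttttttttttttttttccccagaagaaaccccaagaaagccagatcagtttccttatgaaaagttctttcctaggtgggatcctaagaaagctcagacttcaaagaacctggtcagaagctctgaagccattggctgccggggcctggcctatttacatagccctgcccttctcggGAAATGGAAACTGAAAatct

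Oas1a makes the oligoadenylates that activate RNase L, which cuts viral RNA. Its probe set (1424775_at) gave 4.80, 4.69 and 4.40 in mutants, against 6.03, 5.46 and 5.61 in controls. The groups were separate and narrow (log2 fold change -1.07, SE 0.29, adjusted p = 0.276). Oasl2, a related protein of the oligoadenylate synthetase family, gave 2.79, 3.81 and 0 in mutants, against 4.79, 3.58 and 4.08 in controls (1453196_a_at). A value of 0 is the floor set on the signal, reached in mutant 3, and mutant 2 lay within the control range (at least 2.15-fold lower by group mean, adjusted p = 0.382).

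Sensors of foreign nucleic acid form another group of effectors. Zbp1 binds left-handed nucleic acid and can trigger cell death. Its brightest probe set (1429947_a_at) gave 0.21, 0.83 and 1.81 in mutants, against 4.84, 5.09 and 3.97 in controls. All mutants lay below background and all controls above it, so the fold is a bound: at least 3.01-fold lower (fitted log2 fold change -3.69, SE 0.61, adjusted p = 0.0954). The dim probe set of Zbp1 also had separate groups, with means of 0.86 in mutants and 2.82 in controls, both below background. Ifih1, the sensor MDA5 of long double-stranded RNA, gave 6.45, 6.64 and 6.16 in mutants, against 7.54, 7.17 and 7.46 in controls (1426276_at). Its groups were separate by 0.53 between the nearest arrays (log2 fold change -0.98, SE 0.25, adjusted p = 0.249). Dhx58, the regulator LGP2 of the same sensor family, gave 3.25, 1.6 and 1.98 in mutants, against 4.17, 4.02 and 3.92 in controls (1451426_at; at least 1.99-fold lower by group mean, mutant 1 lying above background, adjusted p = 0.299). Eif2ak2 encodes the kinase PKR, which halts translation on double-stranded RNA. It gave 3.07, 4.32 and 3.68 in mutants, against 5.17, 4.71 and 4.04 in controls (1440866_at), with overlapping groups (-0.95, SE 0.45, adjusted p = 0.382).

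A set of effectors with narrow spread lay about 1 to 1.5 log2 units below control. Rtp4, a chaperone of membrane receptors, gave 5.05, 5.80 and 4.71 in mutants, against 6.78, 6.69 and 6.55 in controls (1418580_at; log2 fold change -1.49, SE 0.33, adjusted p = 0.193). Xaf1, a binding partner of the apoptosis inhibitor XIAP, gave 3.74, 4.48 and 4.09 in mutants, against 5.75, 5.32 and 5.30 in controls (1443698_at; -1.35, SE 0.32, adjusted p = 0.229). Its second kept probe set (1443621_at) had overlapping groups, control 1 lying at 1.99. Ifi35 had 3 kept probe sets, and in each of them every mutant lay below every control. The brightest, 1445897_s_at, gave 7.85, 8.05 and 8.35 in mutants, against 8.91, 9.03 and 9.22 in controls (-0.97, SE 0.23, adjusted p = 0.231). The others, 1424617_at and 1459151_x_at, had log2 fold changes of -1.33 (adjusted p = 0.137) and -0.74 (adjusted p = 0.331).

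Samd9l, a restriction factor that acts on translation, gave 4.72, 5.19 and 4.32 in mutants, against 5.82, 5.62 and 5.78 in controls (1460603_at; -1.0, SE 0.31, adjusted p = 0.301). Trim30a, a TRIM protein that dampens inflammatory signalling, gave 4.02, 4.59 and 4.0 in mutants, against 5.19, 5.89 and 4.61 in controls (1417961_a_at; -1.02, SE 0.39, adjusted p = 0.342). Mutant 2 and control 3 of Trim30a all but met, and its second kept probe set, 1451860_a_at, overlapped. Bst2, tetherin, holds budding virions at the cell surface. It gave 7.15, 8.85 and 7.65 in mutants, against 9.02, 8.85 and 8.78 in controls (1424921_at; -1.0, SE 0.41, adjusted p = 0.355). Mutants 1 and 3 lay below the controls, and mutant 2 lay within them.

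In the other antiviral genes the brightest probe set had overlapping groups. Rsad2 encodes viperin, which makes a chain-terminating nucleotide, and Cmpk2, a nucleotide kinase, is its direct neighbour in the genome. Rsad2 (1436058_at) gave 7.94, 7.48 and 4.25 in mutants, against 6.50, 7.56 and 6.37 in controls. Mutant 3 was the lowest of the 6 arrays and mutant 1 the highest, so the groups overlapped (log2 fold change -0.26, SE 0.89, adjusted p = 0.903). Cmpk2 (1422095_a_at) gave 4.11, 0.38 and 2.19 in mutants, against 3.54, 1.97 and 4.21 in controls, with overlap throughout (at least 1.15-fold lower by group mean, fitted log2 fold change -1.02, SE 1.01, adjusted p = 0.627). The second kept probe set of Cmpk2 (1450484_a_at) had separate groups, at 2.54, 2.57 and 0 in mutants, against 4.25, 3.30 and 3.55 in controls. By group mean it was at least 1.58-fold lower (fitted log2 fold change -2.0, SE 0.79, adjusted p = 0.35). Usp18, the protease that removes ISG15 and shuts down the type I receptor, gave 6.04, 6.72 and 5.81 in mutants, against 6.50, 6.46 and 6.48 in controls (1418191_at; -0.29, SE 0.29, adjusted p = 0.635). Parp14, an ADP-ribosyltransferase, gave 6.01, 5.67 and 5.40 in mutants, against 5.90, 5.64 and 5.43 in controls (1451564_at; 0.04, SE 0.28, adjusted p = 0.957). For Parp14 the arrays of the groups interleaved, and the sign turned with the scaling, at -0.41 on the deposited scale.

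All 4 transcription factors had negative log2 fold changes, with a median of -0.70. None passed the adjusted threshold, and 2, Irf7 and Irf9, were lower at an unadjusted p under 0.05 with separate groups. Among all genes, 7.01% were lower at that level and 10.8% had every mutant below every control. Irf7, the factor that amplifies type I interferon production, gave 4.74, 5.43 and 4.65 in mutants, against 6.26, 6.21 and 6.08 in controls (1417244_a_at; -1.25, SE 0.30, adjusted p = 0.234). Irf9, the DNA-binding part of the ISRE complex, gave 5.49, 5.31 and 4.0 in mutants, against 6.07, 5.96 and 5.71 in controls (1421322_a_at; -0.98, SE 0.42, adjusted p = 0.36). Irf9 lay just under the controls in mutants 1 and 2 and well under them in mutant 3. Stat2, which carries the activation domain of that complex, gave 4.74, 5.36 and 3.58 in mutants, against 5.31, 5.34 and 4.31 in controls (1450403_at; -0.42, SE 0.51, adjusted p = 0.691). Irf1, induced mainly by interferon gamma, gave 6.08, 6.61 and 5.92 in mutants, against 6.59, 5.95 and 6.27 in controls (1448436_a_at; -0.07, SE 0.30, adjusted p = 0.925). Stat2 and Irf1 overlapped between the groups, and the second kept probe set of Stat2 (1421911_at) was at 0.22. The median of the class was -0.23 without mutant 3.

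The GTPases typical of interferon gamma had negative log2 fold changes in 6 of 7 genes, with a median of -1.09. None passed the adjusted threshold. At an unadjusted p under 0.05, 3 were lower (7.01% of all genes), and 2 had every mutant below every control (10.8% of all genes). Mutant 3 was the lowest of the 6 arrays in 7 of 7. Without it the median was -0.66. The immunity-related GTPases act against the vacuoles of intracellular parasites, some as effectors and others, such as Irgm1 and Irgm2, as regulators. Igtp (1417141_at) gave 6.26, 7.08 and 5.89 in mutants, against 8.31, 8.16 and 7.66 in controls. All mutants of Igtp lay below all controls (-1.63, SE 0.35, adjusted p = 0.189), a 3.10-fold difference. Its direct neighbour Irgm2 (1417793_at) gave 5.69, 6.16 and 4.70 in mutants, against 6.82, 7.06 and 5.94 in controls. Mutant 2 lay above control 3 (-1.09, SE 0.45, adjusted p = 0.356). Irgm1 (1418825_at) gave 6.58, 6.81 and 6.10 in mutants, against 7.58, 7.61 and 6.86 in controls, with mutant 2 just below control 3 (-0.86, SE 0.31, adjusted p = 0.332).

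Iigp1, an effector of the same family, gave 10.94, 10.32 and 8.70 in mutants, against 11.04, 10.93 and 11.38 in controls (1419043_a_at; -1.13, SE 0.52, adjusted p = 0.373). Mutant 1 just overlapped control 2. In its second probe set, 1419042_at, the groups were separate (-1.53, SE 0.61, adjusted p = 0.352). Ifi47 (1417292_at) gave 7.56, 6.34 and 5.28 in mutants, against 7.46, 7.54 and 7.11 in controls (-0.98, SE 0.52, adjusted p = 0.406). Mutant 1 of Ifi47 was the highest of the 6 arrays.

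The guanylate-binding proteins Gbp2 and Gbp3 disrupt pathogen membranes and lie in 1 cluster with 1 protein-coding gene between them. Gbp3 (1418392_a_at) gave 2.97, 4.13 and 1.47 in mutants, against 5.07, 4.49 and 3.65 in controls, at least 2.56-fold lower by group mean with mutant 2 above background (adjusted p = 0.373). Gbp2 (1418240_at) gave 7.64, 5.48 and 2.56 in mutants, against 5.19, 4.51 and 5.06 in controls. Mutants 1 and 2 lay above every control and mutant 3 below every control, so the fold change of 0.31 had an SE of 1.08 (adjusted p = 0.906). The second probe set of Gbp2 (1435906_x_at) had the same order among mutants, at 7.37, 5.08 and 0. Without mutant 1 the log2 fold change of Gbp2 was -0.90.

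The promoters of Igtp and Irgm2, which had lower mean signals in mutants, and of Gbp2, which did not, are shown for comparison. Each held 1 ISRE core, in capitals, within 64 bases of the start of transcription. In Igtp and Irgm2 a GAS, searched as TTCNNNGAA, began 11 bases before the ISRE core. The 250 bases of Gbp2 held no match to these GAS letters. Neither did those of Gbp3 and Irgm1, which had negative log2 fold changes. Tgtp1 had a GAS 88 and an ISRE core 77 bases before the start, and its probe set shared with Tgtp2 was at 0.61. A link between these motifs and the signals was not tested.
Igtp promoter, chr11:58199306-58199555, plus strand: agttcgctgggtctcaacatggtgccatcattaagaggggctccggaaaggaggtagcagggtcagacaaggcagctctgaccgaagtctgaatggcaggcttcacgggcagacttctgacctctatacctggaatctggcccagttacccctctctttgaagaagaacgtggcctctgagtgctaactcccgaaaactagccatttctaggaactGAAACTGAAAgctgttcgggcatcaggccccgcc
Irgm2 promoter, chr11:58214727-58214976, plus strand: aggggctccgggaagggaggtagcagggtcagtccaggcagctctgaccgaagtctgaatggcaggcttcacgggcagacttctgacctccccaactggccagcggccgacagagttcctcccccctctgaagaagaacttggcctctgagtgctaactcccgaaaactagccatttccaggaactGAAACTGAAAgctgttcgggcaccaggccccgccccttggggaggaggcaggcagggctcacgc
Gbp2 promoter, chr3:142620413-142620662, plus strand: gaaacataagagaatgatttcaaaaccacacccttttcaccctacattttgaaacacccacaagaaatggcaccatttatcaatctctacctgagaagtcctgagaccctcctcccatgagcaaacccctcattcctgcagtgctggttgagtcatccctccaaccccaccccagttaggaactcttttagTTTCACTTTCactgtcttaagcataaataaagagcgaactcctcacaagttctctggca

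Antigen processing genes differed among themselves, with a median of -0.56 over 4 genes, of which 3 were negative. None passed the adjusted threshold and 1, Psmb9, was lower at an unadjusted p under 0.05, against 7.01% of all genes. The class median was -0.29 without mutant 3 and -0.84 without mutant 2. Psmb8 and Psmb9 are catalytic subunits of the immunoproteasome, which cuts proteins into peptides for MHC class I. Tap1 is a subunit of the transporter that carries these peptides into the endoplasmic reticulum. The 3 genes are direct neighbours, and the 250-base upstream windows of Psmb9 and Tap1, which are transcribed in opposite directions, share 225 bases, at chr17:34187331-34187555 (GRCm38.p6). Psmb9 (1450696_at) gave 3.31, 6.08 and 4.73 in mutants, against 6.69, 6.60 and 6.11 in controls. Mutant 2 all but reached control 3, and mutant 1 was far below (-1.76, SE 0.63, adjusted p = 0.331). Tap1 (1416016_at) gave 4.79, 5.05 and 4.37 in mutants, against 5.51, 4.97 and 5.16 in controls (-0.47, SE 0.31, adjusted p = 0.476). Psmb8 (1422962_a_at) gave 6.25, 7.16 and 5.61 in mutants, against 7.04, 7.22 and 6.70 in controls (-0.65, SE 0.40, adjusted p = 0.454). In both, mutant 2 lay within the control range. The other 3 probe sets of Tap1 were below the filter. Nlrc5, the transactivator of MHC class I genes, gave 7.25, 5.07 and 3.94 in mutants, against 4.66, 4.45 and 4.76 in controls (1437176_at). As in Gbp2, mutants 1 and 2 lay above every control and mutant 3 below every control (0.80, SE 0.73, adjusted p = 0.6).

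The chemokines Cxcl9 and Cxcl10 draw activated T and NK cells through the receptor CXCR3. Cxcl9 (1418652_at) gave 0, 5.2 and 0.59 in mutants, against 6.52, 6.21 and 6.29 in controls. It was at or near the floor in mutants 1 and 3 and 1.01 below the lowest control in mutant 2. By group mean it was at least 9.83-fold lower, mutant 2 lying above background (fitted log2 fold change -4.41, SE 1.2, adjusted p = 0.283). The second kept probe set of Cxcl9, 1456907_at, also had separate groups. By group mean it was at least 1.57-fold lower (fitted log2 fold change -1.89, SE 0.80, adjusted p = 0.36). Cxcl10 (1418930_at) gave 3.16, 3.97 and 2.35 in mutants, against 4.43, 3.95 and 3.52 in controls, and mutant 2 lay between controls (-0.81, SE 0.51, adjusted p = 0.461).

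**Figure D2:**
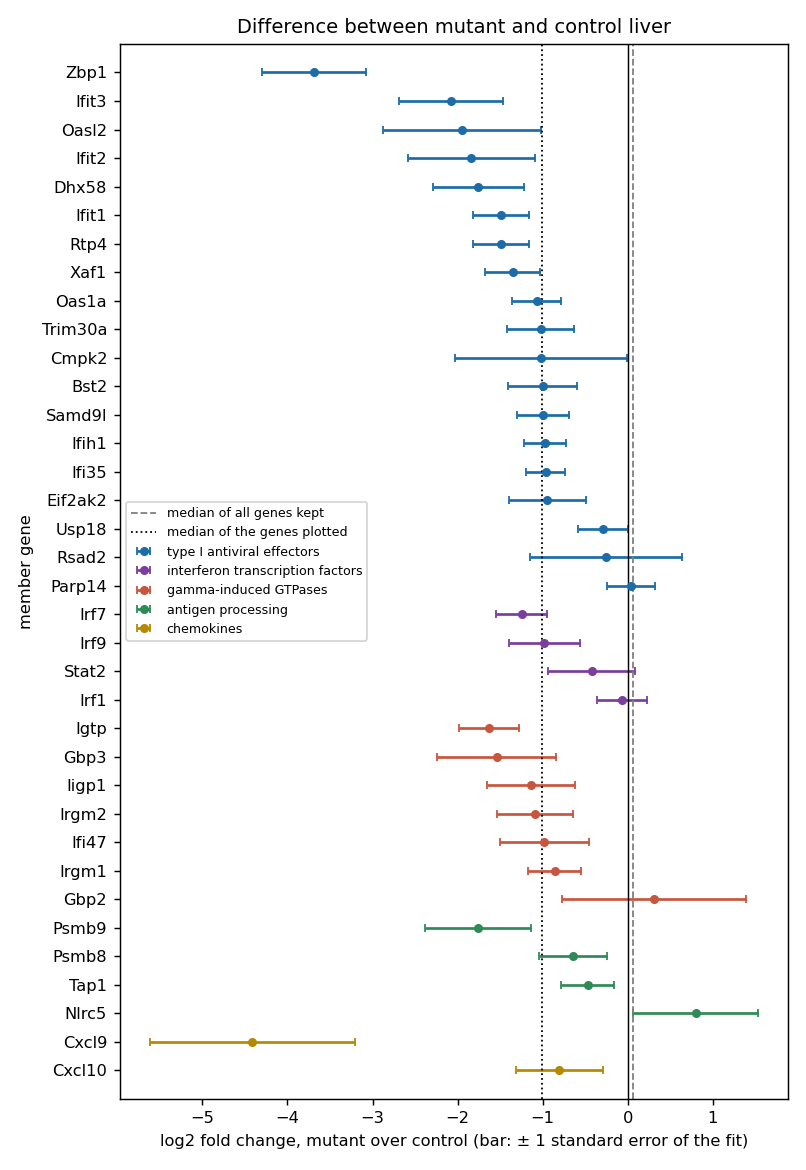
Log2 fold change of mutant over control for the 36 genes kept, by class, with bars of 1 standard error of the limma fit; the dashed line is the median of all genes kept (0.06) and the dotted line the median of the genes plotted (-1.01). Points of 33 genes lie left of 0, and Cxcl9, Gbp2, Cmpk2, Oasl2, Rsad2, Ifit2 and Nlrc5 have the widest bars.

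Of the 12 genes with more than 1 kept probe set, 10 had all of them on the same side of 0. The exceptions were Stat2 and Gbp2. Of the 51 member probe sets kept, 47 were negative, 25 were lower at an unadjusted p under 0.05 (6.18% of all 27022 probe sets kept) and 0 were higher.

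The 3 mutant arrays differed in how far, and in which class, the genes lay below control. The median deviation of the 36 genes from the control mean was -0.93, -0.55 and -1.58 in mutants 1 to 3, against 0.21, -0.02 and -0.13 in controls 1 to 3. Over all genes kept the corresponding medians were between 0.07 and 0.14 in mutants and within 0.02 of 0 in controls. Antiviral effectors were at -1.21, -0.75 and -1.37 in mutants, and GTPases at -0.78, -0.54 and -2.15. Thus mutants 1 and 2 lay further below control in the antiviral class than in the GTPase class, and mutant 3 the reverse; the difference between the classes was not tested. Mutant 3 was the lowest of all 6 arrays in 26 of the 36 genes, against 12% of all genes kept. Among mutants, mutant 2 was the highest in 23 of 36, or 63.9%, against 32.4% of all genes. The mean log2 ratio of 3' to 5' signal was 2.18, 1.18 and 1.57 in mutants 1 to 3, against 0.91, 0.78 and 1.22 in controls. Mutant 2, which had the smallest median deviation over the 36 genes, lay within the control range of this ratio. Mutants 1 and 3 lay above it, so RNA integrity and group partly coincide. With this ratio as a covariate, 12 of the 36 genes were lower at an unadjusted p under 0.05, against 3.04% of all genes, and the median was -0.84.

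**Figure D3:**
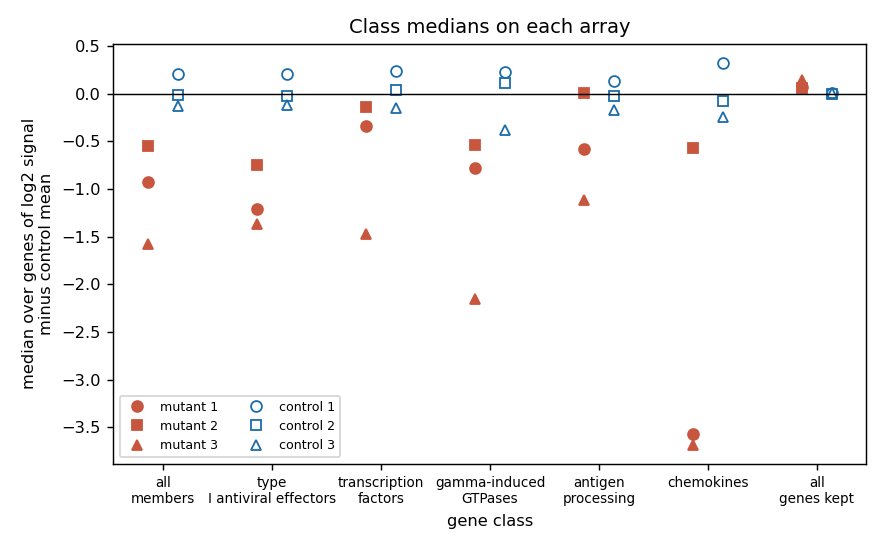
Median over the genes of each class of the log2 signal minus the control mean, for mutants 1 to 3 (filled) and controls 1 to 3 (open). The mutants lie at -0.93, -0.55 and -1.58 over all members and near 0 over all genes kept, mutant 3 is lowest in every class, and mutant 2 lies within the control range in antigen processing and in the transcription factors.

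Other genes of the interferon pathway, outside the 41, showed no median shift of that size in most lists, and none passed the adjusted threshold. Of the 9 ligand genes listed, 5 were measured and only Ifna2 was above the filter, at means of 4.07 in mutants and 4.14 in controls. Ifnb1 (1422305_at) and Ifng (1425947_at) were below background in both groups, at means of 2.20 and 1.42 in mutants, against 1.31 and 0.57 in controls. Of the receptor chains, Ifnar2 gave 8.15, 8.73 and 7.92 in mutants, against 8.89, 8.82 and 8.97 in controls, with separate groups (1451462_a_at; -0.63, SE 0.26, adjusted p = 0.356). Ifnar1 (1449026_at) was at -0.23 (SE 0.28, adjusted p = 0.7). The gamma receptor chains were on the other side of 0, with Ifngr1 at 0.44 (1448167_at; SE 0.23, adjusted p = 0.398) and separate groups, and Ifngr2 at 0.38 (1423558_at; SE 0.37, adjusted p = 0.624).

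Signal transducers had a median of -0.08 over 8 genes, with 0 at an unadjusted p under 0.05. In 3 of the 8 every mutant lay below every control, against 10.8% of all genes. The list of signalling inhibitors had a median of 0.37 over 7 genes, also with 0 at that level. It included Isg20 and Adar, which do not inhibit the signal of the receptors, at -0.52 and 0.25. Of 8 nucleic acid sensing genes kept, 1 was lower at an unadjusted p under 0.05, against 7.01% of all genes. This was Ikbke, a kinase that activates IRF3 and IRF7. It gave 3.64, 5.06 and 4.27 in mutants, against 5.83, 5.37 and 6.02 in controls (1417813_at; -1.42, SE 0.41, adjusted p = 0.292). The rest of MHC class I presentation had a median of -0.14 over 11 genes. In 5 of the 11, or 45.5%, every mutant lay below every control, against 10.8% of all genes and 47.2% of the members. The lowest was Pdia3, a chaperone of the loading complex, which gave 8.51, 10.07 and 9.48 in mutants, against 10.32, 10.73 and 10.26 in controls (1423423_at; -1.09, SE 0.39, adjusted p = 0.331). MHC class II genes, which interferon gamma also induces in antigen-presenting cells, had a median of -1.58 over 6 genes. H2-Ab1 gave 3.98, 6.83 and 4.39 in mutants, against 6.71, 6.46 and 6.71 in controls (1450648_s_at; -1.56, SE 0.67, adjusted p = 0.362). Mutant 2 was thus the highest of the 6 arrays for H2-Ab1 while mutants 1 and 3 lay more than 2 log2 units below the controls.

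**Figure D4:**
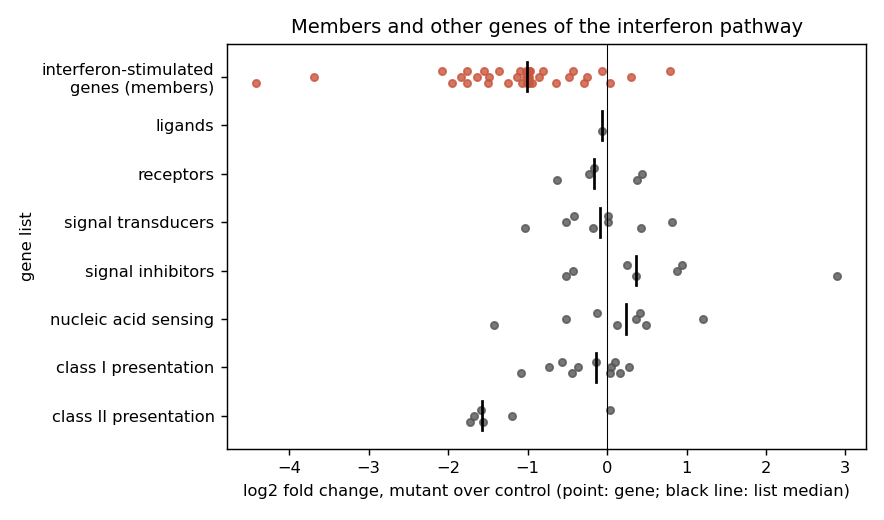
Log2 fold change of mutant over control for the interferon-stimulated genes kept (top, red) and for kept genes of other lists of the pathway (grey), 1 point per gene, with the list median as a black line. The medians are -1.01 for the interferon-stimulated genes, -1.58 for MHC class II presentation and between -0.17 and 0.37 for the other lists. The list of signal inhibitors includes Isg20 and Adar, which do not inhibit the signal of the receptors.

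Markers of the other cell types of the liver were summed on each array. All 12 Kupffer cell and macrophage markers were measured, and their summed signal was 1380 to 2070 in mutants, against 1920 to 2650 in controls. Of the 12, 10 had negative log2 fold changes, against 45.9% of all genes. At an unadjusted p under 0.05, 1 was lower, Timd4 (-1.14, SE 0.43, adjusted p = 0.336), against 7.01% of all genes. The T and NK cell list summed to 64.3 to 142 in mutants, against 75.7 to 124 in controls. Of its 12 measured markers 6 lay below background in both groups, among them Cd3e, Ncr1 and Gzmb. The 4 measured B cell markers summed to 30.7 to 39.3 in mutants, against 46.5 to 48.8 in controls, with no overlap. Of these, 3 (Cd79a, Cd79b and Ms4a1) had mutant means below background, and the other, Ighm, was at 0.24 (SE 0.33). Of the plasmacytoid dendritic cell markers, Siglech and Ccr9 were below background in both groups, and the list summed to 51.3 to 86.6 in mutants, against 52.9 to 77.4 in controls. Endothelial markers summed to 359 to 1400 in mutants, against 703 to 1060 in controls, and neutrophil markers to 107 to 486 in mutants, against 138 to 324 in controls. Stellate cell markers had the same median log2 fold change as the interferon-stimulated genes, -1.01. Of the 8, 7 were negative (45.9% of all genes) and 3 lower at an unadjusted p under 0.05 (7.01% of all genes). Their sum was 825, 2740 and 1460 in mutants 1 to 3, against 2560 to 2870 in controls. Among them the collagen gene Col3a1 was at -3.56 (SE 1.05, adjusted p = 0.296) and Lrat at -1.59 (SE 0.64, adjusted p = 0.353). Col1a1 was at least 5.75-fold lower by group mean (fitted log2 fold change -2.53, SE 0.79, adjusted p = 0.307). Both Col3a1 and Col1a1 had separate groups. The 5 measured erythroid markers summed to 71.3 to 415 in mutants, against 287 to 513 in controls. Of the 4 kept, 2 were negative and 2 positive, with a median of -0.32. Alas2, of heme synthesis, was at -2.97 (SE 1.19, adjusted p = 0.352). Epor was at 0.93 (SE 0.41, adjusted p = 0.365), with every mutant above every control. No measured marker of these lists was at the floor on every array. Their part in the values of the interferon-stimulated genes was not tested.

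The upstream sequences of the genes were compared with those of all genes in the RefSeq table. Of the 41 genes, 32 had an entry. The ISRE core lay in the 250 bases before a start of 15 of them, or 46.9%, against 3.46% of 27025 genes. The GAS lay in 9, or 28.1%, against 8.13%. By class, the ISRE core was found in 6 of 7 GTPases with an entry and in 7 of 16 antiviral effectors, and the GAS in 3 of those GTPases and 4 of those effectors. None of the 3 antigen processing genes with an entry held the ISRE core in this window, and 1, Psmb8, held a GAS. The letters of a match are no evidence of binding in these livers, and a gene without one can carry its element elsewhere.

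**Figure D5:**
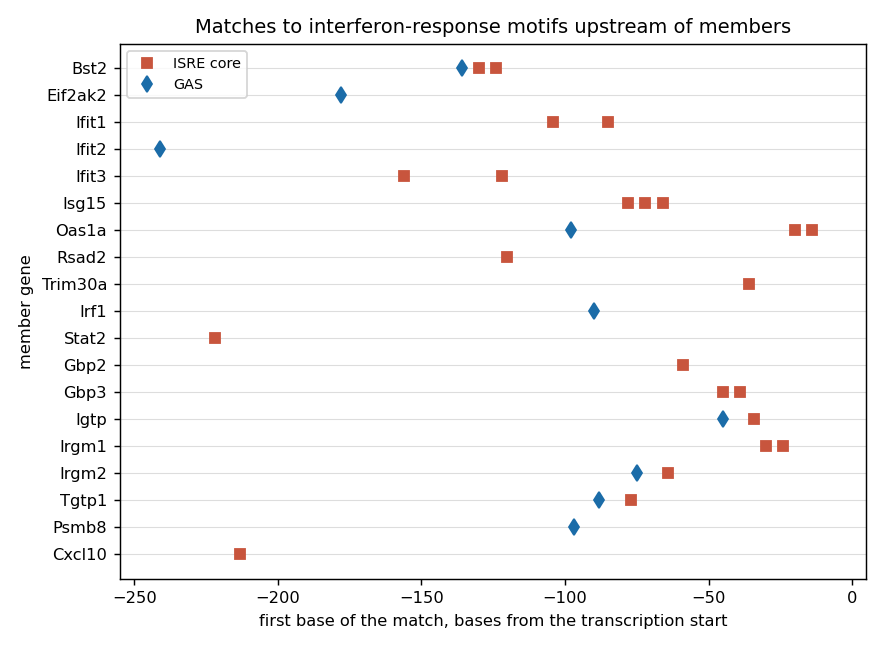
Position of the first base of each match to the ISRE core (squares) and the GAS (diamonds) in the 250 bases before the transcription start (x axis, in bases) for members with at least 1 match. In Igtp and Irgm2 both motifs lie within 75 bases of the start.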

How the data were processed

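Total RNA from 6 livers was labelled with biotin and hybridised to 1 Affymetrix array each, per the labels' protocols. The deposited values are linear intensities per probe set from GCOS, the scanner software, per the submitters' processing notes; the sources used here give no algorithm, scaling target or genome build. Samples were grouped by their titles; the design text calls them separate mice. The number of arrays limits the precision.

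Symbols came from the platform annotation, updated through RefSeq: 34945 probe sets had 1 symbol, 932 several and 9160 none. Arrays were scaled to a common 2% trimmed mean, since deposited trimmed means were 37.3 to 58.1 in mutants and 55.2 to 69.9 in controls. Signals under 1 were set to 1 and log2 was taken. The scaling hides a change shared by most transcripts. The lower 40% of probe sets by mean over all arrays were left out, leaving 27022. limma 3.58.1 (R 4.3.3) fitted mutant against control on every kept probe set, with a variance trend in eBayes and two-sided p-values adjusted by Benjamini-Hochberg. They measure the spread among 3 mice a group. The brightest kept probe set stood for its gene. The steps were tested on simulated data.

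The members and lists were chosen with earlier results of these data known. Per-array values are given for members that reached background in a group, and other pathway genes are named at an unadjusted p under 0.05 or as ligands and receptors. Other lists had no test of their own. Probe sets ending in s_at, x_at or a_at can read related transcripts. Alternatives changed filter, scaling, floor, variance trend, probe set choice, replicate block, RNA integrity and each array in turn.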

Additional observations from a re-analysis of the deposited data

How the results depend on the processing

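No member passed the adjusted threshold in any alternative except without mutant 2, where 7 did and 1.82% of all genes passed as lower; the range without 1 array was 0 to 7. The median over members stayed negative in all 15 alternatives. It was -1.46 on the deposited scaling, where antiviral effectors were at -1.48, antigen processing at -1.01 and all genes at -0.39, and -1.24 with arrays centred on their median, where all genes were at -0.17; relative to all genes both gave -1.07, as did the reported setting. After log2(signal + 32) the medians were -0.53 over members, -0.53 over antiviral effectors and -0.81 over chemokines. With the 3' to 5' ratio as a covariate chemokines were at -0.99 and 12 members were lower at an unadjusted p under 0.05 (3.04% of all genes). Leaving out 1 array gave 13 to 25 such members, the 25 without mutant 2, where 12.5% of all genes were lower, and class medians kept their sign.

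The numbers of probe sets past the threshold, 4 higher and 16 lower, moved more: 0 and 0 without the filter, 32 lower on the deposited scaling, 9 and 98 after log2(signal + 32), 1 and 8 without the variance trend, and 0 and 5 with the ratio as a covariate. Without 1 array they were 0 to 154 higher and 2 to 422 lower. Without the filter, 16 members were lower and 0 higher at an unadjusted p under 0.05, with 5.06% of all genes lower.

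Of 540 values for single genes, 19 changed sign, in 7 genes that were near 0 or spread widely. Gbp2 was at -0.15 on the deposited scaling, -0.027 over its probe sets and -1.32 with the covariate. Parp14 was at -0.41 on the deposited scaling, -0.19 with median centring and -0.11 with the covariate. With the covariate Irf1, Nlrc5, Stat2 and Usp18 were at 0.145, -0.664, 0.0882 and 0.0423. Leaving out arrays gave Gbp2 -0.90, Nlrc5 -0.12 and Parp14 -0.12 without mutant 1, Irf1 0.0716, Rsad2 0.896 and Stat2 0.0652 without mutant 3, Irf1 0.0898 without control 1, Rsad2 0.12 without control 2 and Parp14 -0.0739 without control 3. At the other end of the ranges without 1 array were Gbp2 at 1.64, Nlrc5 at 1.54, Parp14 at 0.185, Irf1 at -0.272, Rsad2 at -0.947 and Stat2 at -0.822. The causes were not tested.

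The titles number both groups 1 to 3. Deviations of same-numbered arrays correlated at -0.04, 0.02 and 0.04, and those of differently numbered arrays at -0.1 to 0.084. With so few arrays these values cannot tell whether the numbers pair the animals. With the replicate number as a block, 3 probe sets were higher and 19 lower, 0 members passed and their median was -1.01.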

Other observations

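Probe sets that the annotation gives to a listed gene and a related one were not used above. That of Isg15 and Gm9706 (1431591_s_at) reads ISG15, the ubiquitin-like protein that USP18 removes from its targets, or its copy. It gave log2 signals of 4.05, 3.92 and 4.04 in mutants 1 to 3, against 5.52, 5.75 and 5.78 in controls 1 to 3. The groups were separate and narrow (log2 fold change -1.68, limma SE 0.27, adjusted p = 0.0888). That of Tgtp1 and Tgtp2 (1449009_at), T-cell-specific GTPases, gave 8.79, 7.98 and 5.71 in mutants, against 6.72, 7.65 and 6.27 in controls. Like Gbp2 and Nlrc5 it was highest in mutant 1 and lowest in mutant 3 of the 6 arrays (0.61, SE 0.74, adjusted p = 0.692). That of Trim30a and Trim30d (1456494_a_at) gave 0.35, 3.25 and 3.08 in mutants, against 3.47, 4.13 and 2.64 in controls, with overlapping groups (adjusted p = 0.512).

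Mutant 1 stood far above the other arrays in several genes of the pathway lists, named after their values were seen. Socs3, a feedback inhibitor of cytokine signalling, gave 11.40, 4.65 and 5.98 in mutants, against 4.47, 4.16 and 4.71 in controls (1455899_x_at; adjusted p = 0.397). Myd88, the adaptor of Toll-like receptors, gave 9.36, 6.41 and 7.33 in mutants, against 6.21, 6.61 and 6.66 in controls (1419272_at; adjusted p = 0.414). The gap was smaller in Ptpn2, Stat3 and Tbk1. These were at 9.87, 10.59 and 8.69 in mutant 1 and at most 7.91, 9.05 and 7.42 on the other arrays.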
